A study of Mus musculus with 13 samples.

Results

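The genes described here encode proteins of the mitochondrial ribosome, taken as every gene whose probe carries a single gene symbol made of Mrpl or Mrps and a number. The rule gave 63 genes on 70 probes, of 9669 genes with a single symbol on 11723 probes. Of these, 41 genes were named for the large subunit (Mrpl) and 22 for the small subunit (Mrps), and 7 genes had more than 1 probe. The rule uses names only and no measured value.

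The mitochondrial ribosome, or mitoribosome, translates the few proteins that the mitochondrial genome encodes, which are core subunits of the respiratory chain and of ATP synthase. All of its proteins are encoded in the nucleus, made in the cytosol and imported, and are assembled on the mitochondrial ribosomal RNAs. Many have counterparts in bacterial ribosomes, and others are found in mitochondria alone. The large subunit holds the peptidyl transferase centre and the exit tunnel, and the small subunit holds the decoding centre. Pluripotent stem cells are known for a metabolism that leans on glycolysis, with mitochondria that mature as the cells differentiate.

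The study compared mouse RNA sources named NT1 with sources named TBV, and the series title writes Sall4 -/- before NT1, which was read as loss of both copies of Sall4. The Sall4 protein is a zinc finger factor that binds DNA in embryonic stem cells and early embryos. NT1 and TBV RNA were hybridised together on 13 two-colour arrays, with NT1 in Cy5 on 7 and TBV in Cy5 on 6. The labels name the sources NT1p14 with TBVp13 (5 arrays), NT1p12 with TBVp12 (4 arrays), NT1 1 with TBV2 (2 arrays) and NT1p12 with TBVp13 (2 arrays), and speak of different passages, so p was read as the passage. They give no cell type, strain, allele, age or number of clones, so NT1 and TBV stand here for 1 line each as far as the labels tell. Each value was taken as a log2 ratio of NT1 over TBV, read as Cy5 over Cy3 and turned where TBV was in Cy5. The sources used here settle neither the log base nor whether the ratio runs that way, so all signs together could be the reverse. Nor is the direction of NT1p14 with TBVp13 settled against that of NT1p12 with TBVp12. Of 10 combinations of an array from each with the same dye orientation, 3 correlated below -0.3 over all genes (range -0.34 to 0.21), and a reversed dye label in 1 of these pairs cannot be told apart from a difference between them. The medians, subunit contrast, signs and calls of the mitoribosomal genes that set these pairs together are therefore also given with the signs of 1 of them turned. Most other comparisons of these pairs, among them those of other lists and markers, take the dye labels as given.

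The first 3 pairs share no RNA source by name and served as n = 3. The labels give no passage for NT1 1 and TBV2, so that these are separate preparations was read from the names. NT1p12 with TBVp13 reuses a source of each of the first 2 pairs and is given as a check only. Arrays of 1 pair are technical repeats and were combined into 1 pair value in which a dye effect cancels. The p-values of the tests over these 3 pairs therefore measure the spread between RNA preparations, and the number of arrays limits the precision. Those of the test between the first 2 pairs, given further on, measure the spread between technical repeats only. Each array gave a value for 14314 to 18381 probes. The Sall4 probe stood at 0.066, -0.59 and -0.32 in the independent pairs, in the order just given, and at -0.22 in the check pair. The part of Sall4 that was deleted is not given in the sources used here, so these values are no check on the labels. Ratios show no levels, so the presence of cell type markers could not be checked.

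Of the 63 genes, 36 had a value on all 13 arrays, 15 on 7 to 12 arrays, 6 on 2 to 6 and 4 on 1. Mrpl46 and Mrps35 had 0 values. A value in all 3 independent pairs was present for 45 genes, 30 of the large and 15 of the small subunit. The 18 others entered no test. Part of the deposited values carry no decimals: 163 of the 712 values of these probes (22.9%) were whole numbers, between 1.79% and 41.5% per array. On such arrays a deposited 0 covers small ratios of either sign, and a 1 or -1 a ratio of unknown decimals. Of the 45 genes, 24 had no whole number on any array and 21 had at least 1.

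The genes lie on 17 chromosomes, with at most 9 on one of them (chromosome 11). RefSeq promoter entries (GRCm38.p6, from 250 bases before to 50 bases after a gene's start) were matched by gene identifier for 56 of the 63. A start on the opposite strand lay within 1000 bases of the start of 20 of these 56 genes (35.7%), against 17.8% of 7754 array genes with an entry. Mrpl46 and Mrps11, one gene of each subunit, start 42 bases apart on chromosome 7. Mrpl43 starts 116 bases from Twnk, which encodes the mitochondrial DNA helicase, Mrps12 147 bases from Sars2, a mitochondrial seryl-tRNA synthetase gene, and Mrpl47 308 bases from Ndufb5, a complex I subunit gene.

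The letters of 3 motifs of factors known to act on nuclear genes of mitochondrial proteins were searched on both strands. CCGGAAGT, a core of the ETS family that holds GABP, was present in 11 of the 56 genes (19.6%), against 8.05% of array genes and 4.31% of all genes with an entry. AAGATGGCG, letters bound by YY1, was present in 8 (14.3%), against 3.4% of array genes and 1.64% of all. GCGCATGCG, a core of the NRF1 site, was present in 4 (7.14%), against 3.48% and 1.95%, and all 4 were large subunit genes. The matched letters of different motifs did not overlap. Of the 8 YY1 matches 6 lay at or after the gene's start, and of the 11 ETS matches 1 did. A match is a description of letters and not of binding.

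Shown are the windows of Mrpl51 and Mrps18a, which passed the test between the first 2 pairs given further on, of Mrpl17, which lay above 0 in all 3 pairs, and of Mrps11, whose window is shared with the start of Mrpl46. Capitals mark the ETS letters in Mrpl51 (chr6:125191950-125192249, plus strand), the YY1 letters in Mrps18a (chr17:46110754-46111053, plus strand) and, on the opposite strand, in Mrps11 (chr7:78782881-78783180, plus strand), and the NRF1 letters in Mrpl17 (chr7:105811038-105811337, minus strand). Each runs 5′ to 3′ on the gene's strand.
Mrpl51: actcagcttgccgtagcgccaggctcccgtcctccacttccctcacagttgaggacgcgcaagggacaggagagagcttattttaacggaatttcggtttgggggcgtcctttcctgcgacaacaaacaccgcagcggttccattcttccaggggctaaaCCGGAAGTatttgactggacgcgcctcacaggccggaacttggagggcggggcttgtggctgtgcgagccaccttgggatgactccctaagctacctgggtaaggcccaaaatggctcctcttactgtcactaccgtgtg
Mrps18a: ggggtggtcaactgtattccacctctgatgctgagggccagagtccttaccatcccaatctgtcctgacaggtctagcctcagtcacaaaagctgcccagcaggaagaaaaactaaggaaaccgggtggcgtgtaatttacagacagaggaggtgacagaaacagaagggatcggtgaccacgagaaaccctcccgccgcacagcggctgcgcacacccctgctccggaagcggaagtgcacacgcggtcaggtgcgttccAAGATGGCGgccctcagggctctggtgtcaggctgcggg
Mrpl17: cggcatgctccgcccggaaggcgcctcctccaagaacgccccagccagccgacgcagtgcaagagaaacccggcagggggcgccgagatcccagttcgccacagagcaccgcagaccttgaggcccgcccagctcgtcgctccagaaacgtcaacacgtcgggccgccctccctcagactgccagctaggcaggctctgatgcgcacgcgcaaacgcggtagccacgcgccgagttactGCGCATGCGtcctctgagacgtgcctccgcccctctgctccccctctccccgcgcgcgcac
Mrps11: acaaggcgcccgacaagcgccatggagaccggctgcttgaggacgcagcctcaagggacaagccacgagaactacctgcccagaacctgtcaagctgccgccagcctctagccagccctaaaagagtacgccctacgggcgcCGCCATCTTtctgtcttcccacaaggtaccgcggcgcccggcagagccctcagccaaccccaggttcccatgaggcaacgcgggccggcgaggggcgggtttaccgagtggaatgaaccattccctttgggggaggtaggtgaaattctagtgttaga

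The first question was whether NT1 differed from TBV in these genes. No mitoribosomal gene passed: 0 of 45 did so in limma's test at an adjusted p of 0.05, and 0 of 7978 genes did (0%). At an unadjusted p under 0.05 there were 0 mitoribosomal genes, against 90 of all genes. The smallest adjusted p over all genes was 1.00. Simple counts were close to even, with 27 means above 0 and 18 below.

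The pairs moved these genes in different directions. The median of the 45 genes was 0.13 in NT1p14 with TBVp13, with 33 genes above 0 and 11 below. In NT1p12 with TBVp12 it was -0.11, with 13 above and 31 below. In NT1 1 with TBV2 it was 0.061, with 30 above and 15 below. The medians of all 7978 genes were 0.026, 0.0079 and -0.0073 in the same order, so the genes lay above all genes in NT1p14 with TBVp13 and NT1 1 with TBV2 and below them in NT1p12 with TBVp12. The mean of the 3 pair medians was 0.027 ± 0.12 (SD, n = 3), which does not exceed the spread between pairs. It was -0.058 once NT1p14 with TBVp13 was turned and 0.099 once NT1p12 with TBVp12 was, and 0 of 45 genes passed in either case. In the check pair the median was 0, with 15 of 40 genes at exactly 0.

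**Figure D1:**
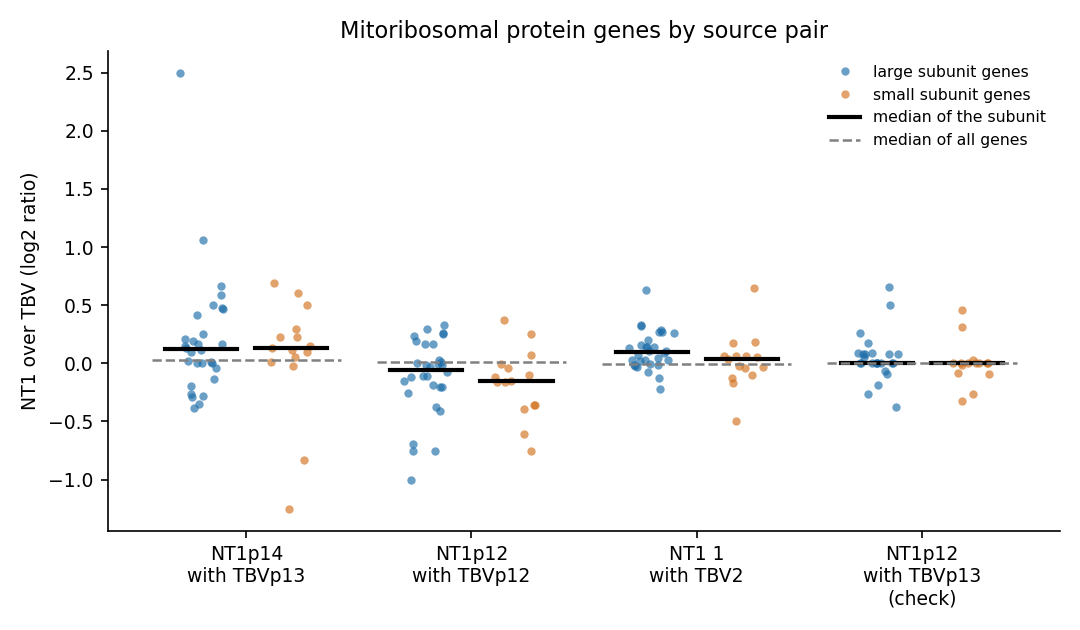
Log2 ratio of NT1 over TBV (vertical axis) of each gene in the 4 source pairs (horizontal axis), for the large subunit (blue) and the small subunit (orange); a point is 1 gene, a black bar the median of the subunit and the dashed line the median of all genes. The medians of both subunits sit above the dashed line in NT1p14 with TBVp13 and below it in NT1p12 with TBVp12.

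The second question was whether the large and the small subunit differed. The median of the 30 large subunit genes was 0.12 for NT1p14 with TBVp13. It was -0.054 for NT1p12 with TBVp12 and 0.097 for NT1 1 with TBV2. The 15 small subunit genes had 0.13, -0.15 and 0.040 in the same pairs. Large minus small was thus -0.0050, 0.099 and 0.057, with a mean of 0.050 ± 0.052 (SD, n = 3). It was 0 in the check pair. The subunits moved in the same direction in each pair, and the difference between them was about the size of its own spread and changed sign between pairs. By position in the mammalian ribosome, Mrps18a and Mrps30 belong to the large subunit despite their names and Mrps36 is now regarded as a subunit of the 2-oxoglutarate dehydrogenase complex. With that assignment large minus small was 0.044. By symbol it was 0.054 with NT1p14 with TBVp13 turned and -0.016 with NT1p12 with TBVp12 turned.

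Only Mrpl17 and Mrpl4 had the same sign in all 3 pairs, both above 0, which is 2 of 45 genes, whereas 14.6% of all genes had the same sign throughout. With NT1p14 with TBVp13 turned it was 14 of 45 genes (31.1%), where 30.2% of all genes were, and with NT1p12 with TBVp12 turned 24 of 45 (53.3%), where 40.1% were. Mrpl17 encodes a large subunit protein with a bacterial counterpart. Its 5 arrays of NT1p14 with TBVp13 gave 0.014, 0.16, 0.40, 0.063 and 0.21, the 4 arrays of NT1p12 with TBVp12 gave -0.23, -0.068, 0.34 and -0.0014, and the arrays of NT1 1 with TBV2 gave 0.33 and -0.012. The first pair was above 0 on every array and the second on 1 of 4. The pair values were 0.19, 0.0095 and 0.16, with a mean of 0.12 ± 0.097 (SD, n = 3), and -0.066 in the check pair. Its 2 probes differed in sign in 2 of the 3 pairs, at -0.20 and 0.58 in NT1p14 with TBVp13 and at -0.029 and 0.35 in NT1 1 with TBV2.

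Mrpl4, also a large subunit protein with a bacterial counterpart, had 0.30, 0.45, -0.46, -0.050 and 0.022 on the arrays of NT1p14 with TBVp13. It had 0.22, 0.64, -0.48 and 0.27 in NT1p12 with TBVp12, and 0.32 and -0.17 in NT1 1 with TBV2. Arrays with NT1 in Cy5 were the high ones in each pair, apart from array 4 of both pairs. The pair values were 0.0061, 0.16 and 0.074, with a mean of 0.081 ± 0.078 (SD, n = 3), below its dye effect of 0.25 ± 0.021 (SD, n = 3). Neither gene passed the test (limma, adjusted p = 1.00 for both).

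The highest means belonged to Mrpl23, Mrpl28, Mrps7 and Mrpl52. Mrpl23, whose protein lies by the exit of the polypeptide tunnel, averaged 0.69 ± 1.64 (SD, n = 3), from 2.50, -0.69 and 0.27. Its arrays gave 0, 1, 2 and 7 in NT1p14 with TBVp13, where array 2 had no value, and -0.56, -0.63, -0.58 and -1 in NT1p12 with TBVp12. The other arrays gave 0.39 and 0.15 in NT1 1 with TBV2 and 0 on both arrays of the check pair. The arrays of the first 2 pairs did not overlap, and the height of the first rests on the 7 of array 5, without which the mean was 0.19. Mrpl28, a large subunit protein with a bacterial counterpart, averaged 0.32 ± 0.66 (SD, n = 3), and 0.14 without that array. Its arrays gave 0.22, -0.097, 0.83, 0.49 and 3 in NT1p14 with TBVp13, -0.67, -0.52 and 0.19 in NT1p12 with TBVp12, and -0.13 and 0.34 in NT1 1 with TBV2.

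Mrps7, a small subunit protein of the head with a bacterial counterpart, was above 0 on 10 of 13 arrays, the most of the 45 genes. It had 0.0040, 0.12, 0.38, 0.22 and 0.29 in NT1p14 with TBVp13, -0.70, -0.19, 0.39 and -0.11 in NT1p12 with TBVp12, and 0.59 and 0.72 in NT1 1 with TBV2. Its mean was 0.24 ± 0.40 (SD, n = 3), and the check pair stood at 0.46. Mrpl52, a protein of the mitochondrial large subunit without a bacterial counterpart, had 0.26, 0.26, 0.32, 0.57 and 0.84 in NT1p14 with TBVp13. It had -0.25, -0.12, 0.070 and 0.0090 in NT1p12 with TBVp12, and 0.19 and 0.38 in NT1 1 with TBV2. All 5 arrays of the first pair lay above all 4 of the second, and the mean was 0.23 ± 0.28 (SD, n = 3).

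The lowest means belonged to Mrps18a, Mrps26, Mrpl18 and Mrps34. Mrps18a averaged -0.36 ± 0.55 (SD, n = 3), from -0.83, 0.25 and -0.50, and all 13 of its values were whole numbers. Mrps26, a small subunit protein without a bacterial counterpart, had 0.13, -0.64, -3, -1 and -1 in NT1p14 with TBVp13, 0.46, 0.75, 0.12 and 0.18 in NT1p12 with TBVp12, and -0.32 and 0.064 in NT1 1 with TBV2. It was low on 4 of 5 arrays of the first pair and high on all of the second, with a mean of -0.33 ± 0.83 (SD, n = 3), or -0.17 without array 3 of the first pair. Mrpl18, a large subunit protein of the central protuberance, had 0 on 4 of 5 arrays of NT1p14 with TBVp13 and 1 on array 4. It had -1 on 3 of 4 arrays of NT1p12 with TBVp12 and 0 on array 3, and -0.064 and -0.091 in NT1 1 with TBV2, for a mean of -0.22 ± 0.47 (SD, n = 3). Mrps34, a small subunit protein without a bacterial counterpart, had 0 and 1 in NT1p14 with TBVp13, -2, -1 and 0 in NT1p12 with TBVp12, and -0.53 and 0.45 in NT1 1 with TBV2. Its mean was -0.098 ± 0.63 (SD, n = 3). None of these 8 genes passed the test (limma, adjusted p = 1.00 for each). The order depends on the direction of the pairs. With NT1p14 with TBVp13 turned, Mrps26, Mrpl54, Mrpl55 and Mrpl3 had the highest means and Mrpl23, Mrpl15, Mrps34 and Mrps11 the lowest. With NT1p12 with TBVp12 turned, Mrpl23, Mrpl15, Mrpl28 and Mrps11 were highest and Mrps26, Mrps18a, Mrpl3 and Mrpl36 lowest.

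**Figure D2:**
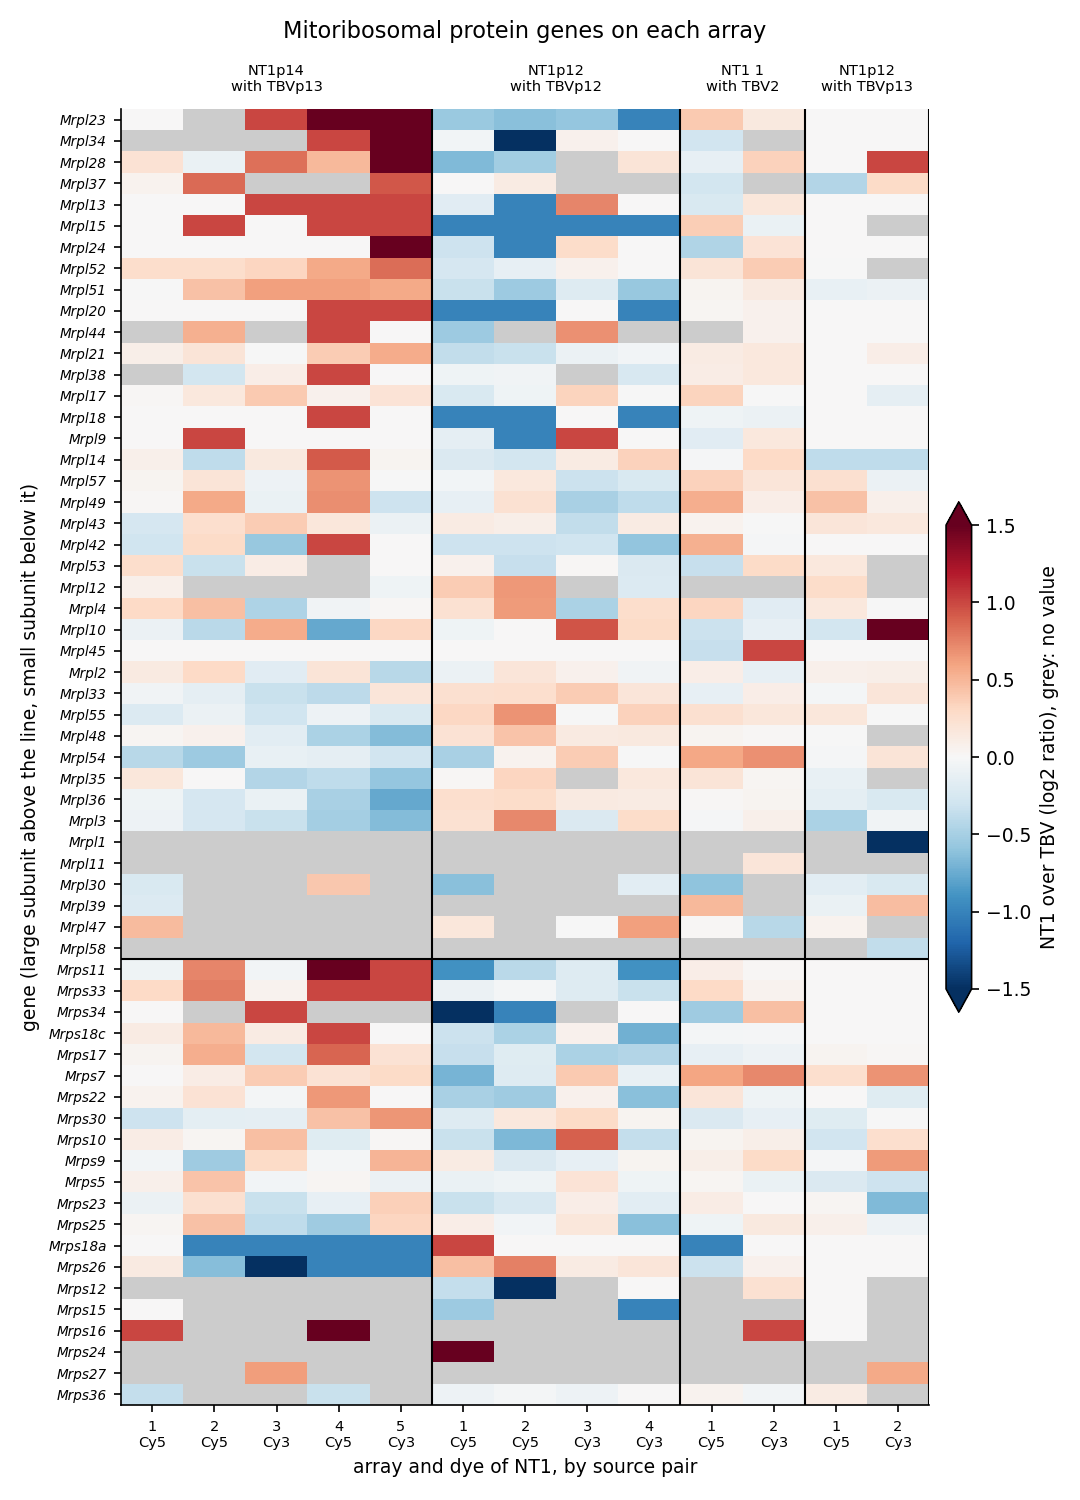
Log2 ratio of NT1 over TBV (colour, red above 0, blue below 0, grey without a value, limited at 1.5 in either direction) of the 61 genes with a value (rows, large subunit above the line) on the 13 arrays (columns, by source pair with the dye of NT1). Red rows of NT1p14 with TBVp13 are mostly blue in NT1p12 with TBVp12, and many cells of the check pair are at 0.

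The third question was how far NT1p14 with TBVp13 and NT1p12 with TBVp12 differed. The 2 pairs had opposite signs in 38 of the 45 genes (84.4%), against 70.3% of all 7978 genes. In 29 genes the first pair was above 0 and the second below, and in 9 the reverse. Across the 45 genes the pair values correlated at r = -0.64 (Spearman's rho -0.78), against -0.48 over all genes, and these pairs share no source. With 1 of them turned, 6 of 45 genes (13.3%) had opposite signs, where 27.8% of all genes did, and both correlations were positive. Large subunit genes gave -0.60 and small subunit genes -0.81. Genes without any whole number were opposite in 21 of 24 and those with one in 17 of 21. NT1 1 with TBV2 correlated at r = 0.25 with the first pair and -0.14 with the second. These correlations are across genes, which share the arrays and are not independent replicates.

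**Figure D3:**
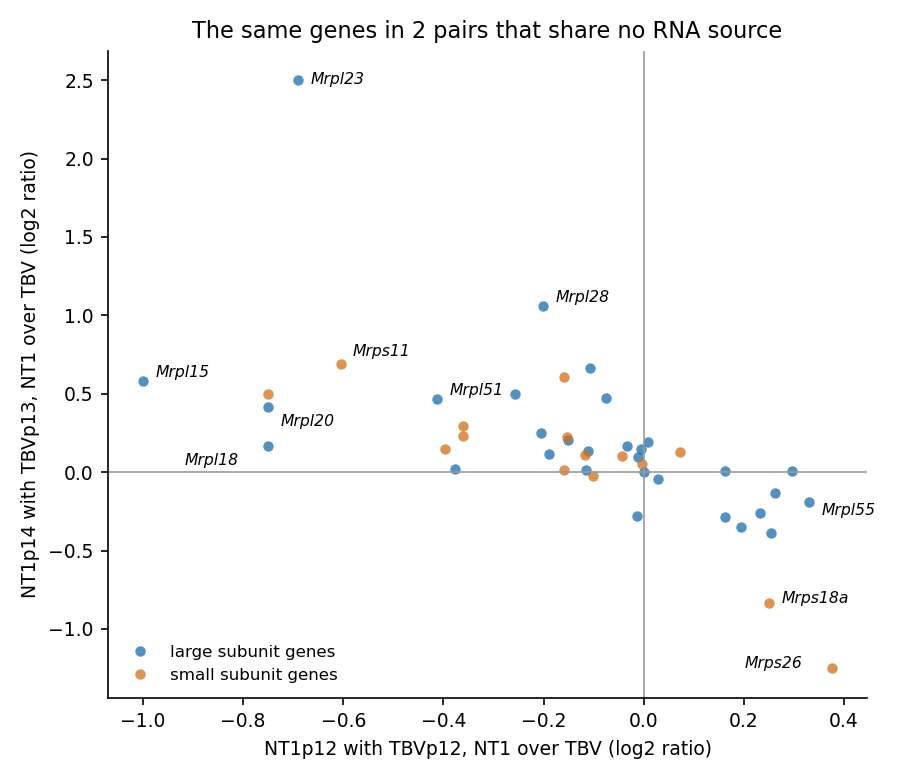
Log2 ratio of NT1 over TBV in NT1p14 with TBVp13 (vertical axis) against that in NT1p12 with TBVp12 (horizontal axis) for the 45 genes with a value in all 3 independent pairs, large subunit in blue and small subunit in orange. Most points fall in the upper left part, 29 genes, or the lower right part, 9 genes.

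In limma's test of this difference over the 9 arrays, 5 of 44 mitoribosomal genes passed (11.4%), and 816 of 7745 genes did (10.5%), so the share was near that of the array. Once NT1p14 with TBVp13 was turned, 0 of 44 mitoribosomal genes and 2 of 7745 genes passed, so all 5 calls rest on the dye labels as given. Mrpl15, Mrpl20 and Mrpl51 were higher in NT1p14 with TBVp13, 3 of 44 genes where 6.22% of all genes were. Mrpl55 and Mrps18a were lower, 2 of 44 genes where 4.31% of all genes were. The median difference was 0.22 for the 44 genes, with 31 above 0 and 12 below, and 0.029 for all genes. The large subunit had 4 calls of 30 and the small subunit 1 of 14, with medians of 0.22 for both. The arrays are technical repeats, so this test compares the RNA preparations and not passages in general.

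Mrpl51, a large subunit protein found in mitochondria and not in bacteria, had -0.0036, 0.44, 0.61, 0.61 and 0.56 in NT1p14 with TBVp13, against -0.33, -0.55, -0.20 and -0.57 in NT1p12 with TBVp12. All arrays of the first pair lay above all of the second, and none of its 13 values was a whole number. The difference was 0.87 ± 0.17 (SE; limma, adjusted p = 0.040), and the pair value of NT1 1 with TBV2, 0.087, lay between the 2, from arrays at 0.038 and 0.13. Its promoter window is the one shown above with the ETS letters, which began 90 bases before the start. Mrpl55, another large subunit protein without a bacterial counterpart, had -0.20, -0.089, -0.30, -0.071 and -0.23 in NT1p14 with TBVp13, against 0.31, 0.68, -0.010 and 0.34 in NT1p12 with TBVp12. Its arrays did not overlap either, and the difference was -0.53 ± 0.14 (SE; limma, adjusted p = 0.0498).

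The 3 other genes that passed had whole numbers on all 9 arrays. Mrpl15, a large subunit protein with a bacterial counterpart, had 0, 1, 0, 1 and 1 in NT1p14 with TBVp13, against -1 on all 4 arrays of NT1p12 with TBVp12, a difference of 1.59 ± 0.27 (SE; limma, adjusted p = 0.037). Mrpl20, which has a bacterial counterpart that is needed early in assembly of that subunit, had 0, 0, 0, 1 and 1 in NT1p14 with TBVp13, against -1, -1, 0 and -1 in NT1p12 with TBVp12, a difference of 1.18 ± 0.32 (SE; limma, adjusted p = 0.0498). Mrps18a had 0, -1, -1, -1 and -1 in NT1p14 with TBVp13, against 1, 0, 0 and 0 in NT1p12 with TBVp12, a difference of -1.09 ± 0.27 (SE; limma, adjusted p = 0.046). Arrays of the last 2 genes overlapped at 0. A further 4 genes had an adjusted p between 0.05 and 0.06, Mrps26 (-1.58 ± 0.43, SE; adjusted p = 0.0501), Mrpl52 (0.55 ± 0.15; 0.051), Mrpl3 (-0.65 ± 0.18; 0.052) and Mrps33 (0.77 ± 0.22; 0.054).

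These calls sit close to the threshold and depend on single arrays. Without array 2, 4 or 5 of NT1p14 with TBVp13, or array 1, 2 or 4 of NT1p12 with TBVp12, 0 mitoribosomal genes passed. Of all genes, 7 of 7886 (0.0888%) passed without array 4 of the first pair and 0 in each of the other cases. Without array 1 of the first pair 8 of 45 passed (17.8%), where 17.1% of all genes did, 8 of 46 without its array 3 (17.4%), where 8.54% did, and 8 of 44 without array 3 of the second (18.2%), where 8.02% did. The 5 directions were the same without any one array. Arrays 4 and 5 of NT1p14 with TBVp13 had the widest ratios, with a median absolute deviation over all genes of 0.65 and 0.81 against 0.081 to 0.46 on the other 11, and 29.4% and 39.2% whole numbers. Without both, the median of the 45 genes in that pair was 0.023, and 32 of 45 genes (71.1%) were opposite to NT1p12 with TBVp12. The share of all genes with opposite signs is known with all arrays only, at 70.3%. In the test without both, 0 of 46 mitoribosomal genes passed, where 18 of 8131 genes (0.221%) did. Among genes without a whole number on the 9 arrays, 7 of 25 mitoribosomal genes passed: Mrpl3, Mrpl36, Mrpl48, Mrpl51, Mrpl52, Mrpl55 and Mrps22, which is 28%, where 18.8% of 4297 genes did. Of 19859 values with a size of 1 or more, 79 carried decimals, so this subset leaves out nearly all genes with such a value. It was thus selected in part on the size of the tested values.

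**Figure D4:**
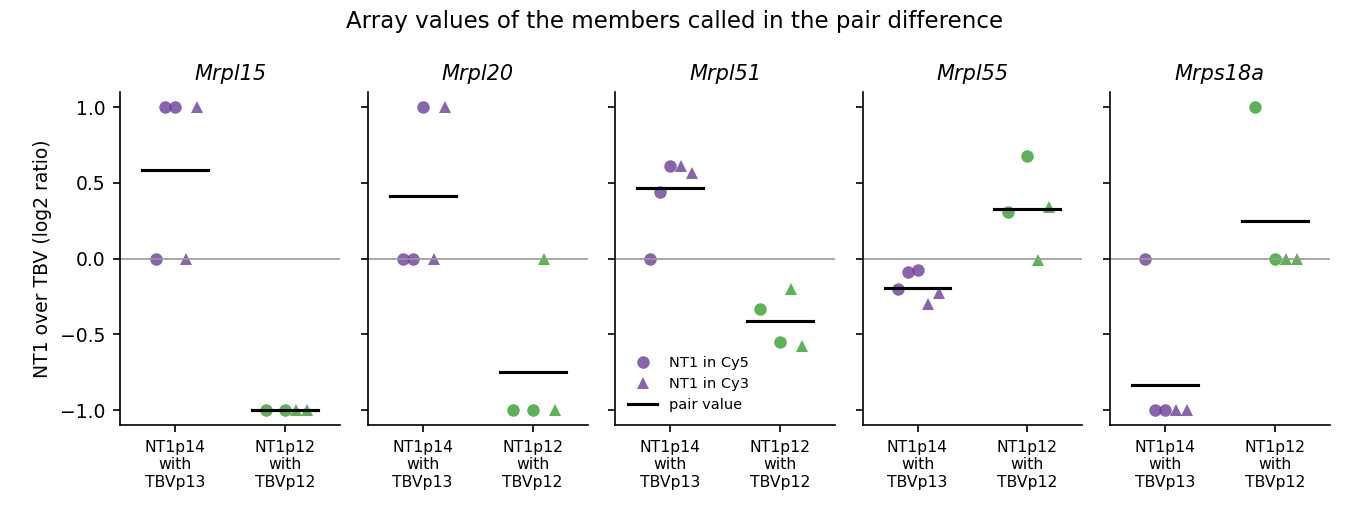
Log2 ratio of NT1 over TBV (vertical axis) on each array of NT1p14 with TBVp13 (purple) and NT1p12 with TBVp12 (green) for the 5 genes that passed the test of the difference between them; circles are arrays with NT1 in Cy5, triangles arrays with NT1 in Cy3 and bars the pair value. Mrpl15, Mrpl20 and Mrps18a take the values -1, 0 and 1 alone.

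The arrays of the 2 pairs did not overlap in 11 of the 44 genes. Higher in NT1p14 with TBVp13 were 7, Mrpl15, Mrpl21, Mrpl23, Mrpl51, Mrpl52, Mrps11 and Mrps33, which is 15.9%, where 7.97% of all genes were. Lower were 4, Mrpl33, Mrpl36, Mrpl48 and Mrpl55, which is 9.09%, where 6.08% of all genes were. All 4 of the lower ones encode large subunit proteins. Mrps11, a small subunit protein of the platform with a bacterial counterpart, had -0.062, 0.74, -0.036, 2 and 1 in NT1p14 with TBVp13, against -0.91, -0.41, -0.20 and -0.91 in NT1p12 with TBVp12. Its difference of 1.32 ± 0.42 (SE) did not pass (limma, adjusted p = 0.068), and Mrpl46, which shares its start region, had no value to set beside it.

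The dye effect was measured from the same pairs. None of the 45 genes passed (limma, 0 of 7978 genes, 0%), while at an unadjusted p under 0.05 there were 8 of 45, against 1810 of 7978. Of the 8, 5 had the higher signal in Cy3 and 3 in Cy5. They ran from Mrps34 at -0.58 ± 0.15 and Mrpl28 at -0.49 ± 0.32 to Mrpl4 at 0.25 ± 0.021 and Mrpl49 at 0.26 ± 0.048 (SD, n = 3). In NT1p14 with TBVp13 the median of the 45 genes was 0.18 with NT1 in Cy5 and 0.052 with TBV in Cy5, and in NT1p12 with TBVp12 it was -0.15 and 0.

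For the other genes with several probes, the probes are given in the same order in both pairs. Mrpl21, a large subunit protein with a bacterial counterpart, had 0.21 and 0.29 in NT1p14 with TBVp13, against -0.31 and -0.11 in NT1p12 with TBVp12. Mrpl49, a large subunit protein without a bacterial counterpart, had -0.094 and 0.32 in NT1p14 with TBVp13, against -0.15 and -0.22 in NT1p12 with TBVp12. The probes of Mrps17, a small subunit protein with a bacterial counterpart, lay on opposite sides of 0 in both pairs, at -0.22 and 1.00 in the first and 0.18 and -0.90 in the second, and the second probe held 6 whole numbers among 11 values. Mrps23 had 0.13 and -0.11 in NT1p14 with TBVp13, against -0.28 and -0.035 in NT1p12 with TBVp12. The second probes of Mrpl10, a protein of the stalk that recruits translation factors, and of Mrps25 had 1 and 2 values and gave no pair value. The probes of Mrpl21 thus had the same sign in each pair, while those of Mrps17, Mrps23, Mrpl49 and Mrpl17 differed in sign in at least 1.

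The S18 family holds 3 nuclear genes whose products sit at different places in the mitoribosome. Mrps18c, which takes the place of the bacterial protein in the small subunit, had pair values of 0.30, -0.36 and -0.021, and Mrps18a, of the large subunit, had -0.83, 0.25 and -0.50, so the 2 were opposite in the first 2 pairs. The difference between those pairs was 0.68 ± 0.24 (SE; limma, adjusted p = 0.082) for Mrps18c. Mrps18b and Mrps21 were not analysed here. Mrps10, a small subunit protein with a bacterial counterpart, had 0.11, -0.12 and 0.064. Mrpl12, the stalk protein that binds translation factors, had a value on 6 arrays, with 0.0068 in NT1p14 with TBVp13 and 0.15 in NT1p12 with TBVp12. Mrps12, of the decoding centre, had a value on 5 arrays and a pair value of -0.59 in NT1p12 with TBVp12, from -0.35, -2 and 0.

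The members did not share 1 profile over the arrays. Of the 36 genes with a value on all 13 arrays, the correlation of a gene with the median of the members ran from -0.64 to 0.86, with a median of 0.36. Each gene contributes to that median, and all share the arrays. The genes outside the family closest to the median profile, of 5825 with a value on every array, were Bcap31 (r = 0.90), Ssb (0.89), Arfgef2 (0.89) and Tox4 (0.88). Ssb encodes the La protein, which binds the ends of RNA polymerase III transcripts, and stood at 0.28, -0.59 and 0.25 in the 3 pairs. Bcap31 stood at 0.37, -0.20 and 0.27.

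The genes of cytosolic ribosomal proteins had the same order of pairs with values farther from 0. For all 36, the median was 0.42 in NT1p14 with TBVp13. It was -0.48 for NT1p12 with TBVp12 and 0.11 for NT1 1 with TBV2, with opposite signs in the first 2 pairs in 31 of 36 (86.1%). In the test between these pairs 7 of 34 passed (20.6%), all higher in the first, where 10.5% of all genes passed. The median difference was 1.11, against 0.22 for the mitoribosomal genes. By array, the cytosolic median was 0, 0.053, 0, 1 and 1 in NT1p14 with TBVp13, so its height there rests on arrays 4 and 5. Rpl8, Rps12, Rps14 and Rps23 shared pair values of 0.75 and -0.75 and a difference of 1.55. Lost decimals and these 2 wide arrays thus limit what the sizes show. The 75 genes of oxidative phosphorylation, whose core partners the mitoribosome makes, had 0.17, -0.068 and 0.011. Of 70 tested 14 passed (20%), 10 higher and 4 lower, where 10.5% of all genes passed. The 14 held Sdhd of complex II at 1.41 ± 0.21 and Ndufs7 of complex I at -1.38 ± 0.30 (SE; limma, adjusted p = 0.037 and 0.040). No test set one list against another. With NT1p14 with TBVp13 turned, 2 of all 7745 genes passed, so the calls in the lists here and below rest largely on the dye labels as given.

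Of the genes that serve mitochondrial translation, 0 of 6 translation factors, 1 of 8 aminoacyl-tRNA synthetases and 0 of 15 assembly and ribosomal RNA factors passed between the first 2 pairs. Of all genes 10.5% passed, and with so few genes per list the counts here do not set these lists apart from that share. The synthetase was Gars, of the cytosol and mitochondria, at 1.18 ± 0.32 (SE; limma, adjusted p = 0.0498). The elongation factor gene Tufm stood at 0.17, -0.13 and -0.032 in the 3 pairs. Among transcription factors and regulators 1 of 8 passed, Ppargc1b, a coactivator gene of mitochondrial biogenesis, at -0.76 ± 0.19 (SE; limma, adjusted p = 0.048). Tfam, which packages mitochondrial DNA, stood at 0.28, -0.38 and 0.053 and did not pass (adjusted p = 0.067). The factors behind the motifs were at 1.06, -0.065 and 0.49 for Nrf1, at 0, -1 and -0.53 for Gabpa and at -0.065, -0.038 and 0.066 for Yy1. Among 16 import genes, Tomm70a at 1.22 ± 0.31 and Tomm40 at -0.997 ± 0.22 passed (SE; limma, adjusted p = 0.048 and 0.041).

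Markers of cell types also differed between the pairs, and not all in the order of the mitoribosomal genes. The 11 fibroblast markers, of cells such as feeders, had medians of 0.79 in NT1p14 with TBVp13, with 9 of 11 above 0, -0.45 in NT1p12 with TBVp12, with 0 of 11 above 0, and -0.49 in NT1 1 with TBV2, with 2 of 11 above 0. Their summed level cannot be given from ratios. The 14 pluripotency markers had -0.16, -0.51 and -0.24, the 4 trophectoderm markers 0.14, 0.46 and 0.096, and the 5 endoderm markers 0.16, -0.0020 and 0.17. The part of these shifts in the values of the mitoribosomal genes was not tested. In bulk RNA, fewer cells of a type and less RNA per cell cannot be told apart.

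**Figure D5:**
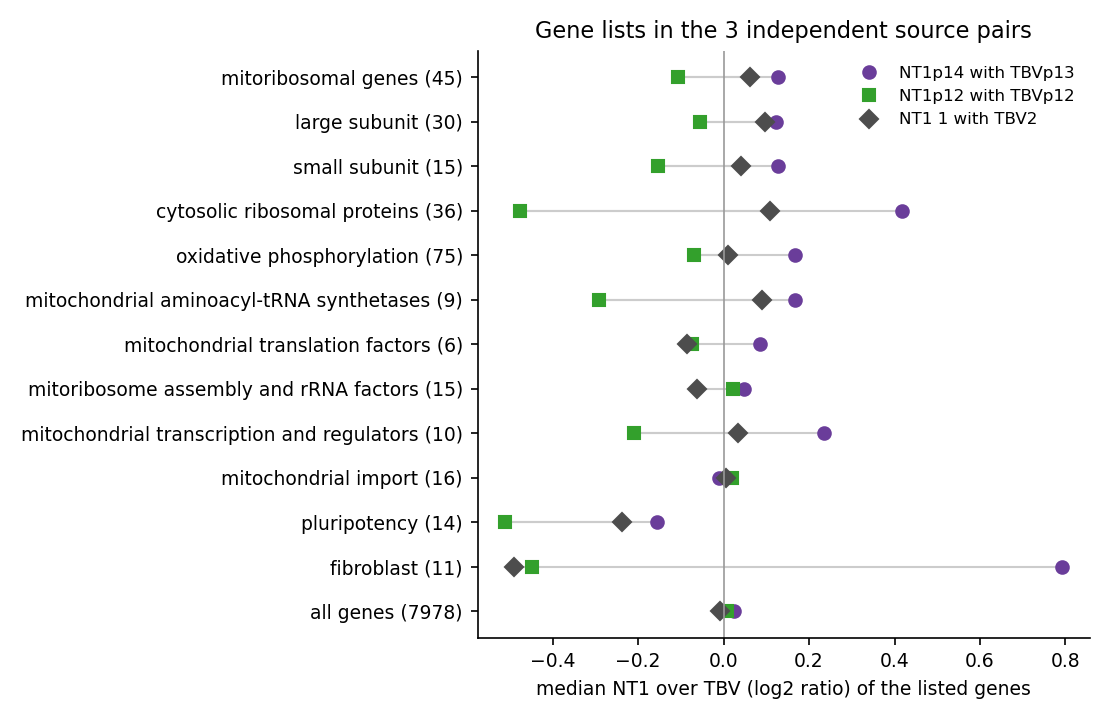
Median log2 ratio of NT1 over TBV (horizontal axis) of the genes of each list (rows, with the number of genes) in NT1p14 with TBVp13 (purple circles), NT1p12 with TBVp12 (green squares) and NT1 1 with TBV2 (grey diamonds). The mitoribosomal genes run from -0.11 to 0.13 and the cytosolic ribosomal protein genes from -0.48 to 0.42.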

How the data were processed

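The deposited table holds log ratios made by the authors, 1 per probe and array, for 20205 probes, which were read as log2 of Cy5 over Cy3. The arrays, dyes and sources are given per the labels. The log base, the numerator and the normalisation are not given in the sources used here. Of 220028 values, 19859 had a size of 1 or more and 79 of these carried decimals. The platform annotation gave 1 symbol for 11723 probes, several for 806 and none for 7676, and 9 probes with several symbols that include an Mrpl or Mrps gene stayed unnamed. All 63 symbols matched the RefSeq gene table.

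Arrays were centred on their median, turned to NT1 over TBV, and averaged per gene over probes. Before turning, a pair value is the mean of arrays with NT1 in Cy5 minus the mean of those with TBV in Cy5, divided by 2, and the dye effect is their sum divided by 2. The 3 independent pairs were tested against 0 in limma (lmFit, eBayes; version 3.58.1, R version 4.3.3), two-sided, with Benjamini-Hochberg adjustment over all 7978 genes and a threshold of 0.05. The pair difference was fitted on 9 arrays with a dye term, over genes with at least 7 values (7745 genes). The scripts were tested on simulated data. Gene names to be printed followed a rule: the same sign in all pairs, the 4 highest and 4 lowest means, the 6 largest pair differences, genes past a threshold, genes with several probes, and Mrps18a, Mrps18b, Mrps18c, Mrps10, Mrpl12, Mrps12 and Mrps21. The genes that fell between adjusted p values of 0.05 and 0.06, those without overlap, the dye examples and the examples from other lists were chosen after their values were seen. The members and lists were chosen with earlier results of these data known. Lists of few genes are described by counts and medians, with no test. Alternatives changed the dye orientation, the unit of replication, centring and scaling, the summary of probes, the handling of missing values, moderation, thresholds and the direction of a pair, or left out arrays or pairs. Python 3.11.15 with matplotlib 3.10.9 drew the figures.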

Additional observations from a re-analysis of the deposited data

Results flagged for a closer look

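Among 21 groups of 4 or 5 arrays of the named genes, 7 held an array that stood apart from the others of its pair. They were Mrpl23 at -1 on array 4 of NT1p12 with TBVp12, Mrps18a at 0 on array 1 of NT1p14 with TBVp13 and at 1 on array 1 of NT1p12 with TBVp12, Mrpl18 at 1 on array 4 of NT1p14 with TBVp13 and at 0 on array 3 of NT1p12 with TBVp12, Mrpl20 at 0 on array 3 of NT1p12 with TBVp12, and Mrpl51 at -0.0036 on array 1 of NT1p14 with TBVp13. Of these 7 values, 6 were whole numbers.

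By a test of the difference itself, 5 genes had another effect in NT1p14 with TBVp13 than in NT1p12 with TBVp12. The first minus the second was 1.59 for Mrpl15, 1.18 for Mrpl20 and 0.87 for Mrpl51, and it was -0.53 for Mrpl55 and -1.09 for Mrps18a.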

How the results depend on the processing

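The test of NT1 over TBV called 0 mitoribosomal genes under every alternative that was run, and 0 of 596 values of the 23 named genes over all settings passed. Over all genes it called 7 when the 13 arrays were taken as independent. The median of the large subunit was 0.18 and large minus small was 0.15 with arrays scaled to 1 median absolute deviation, and large minus small was -0.016 with the signs of NT1p12 with TBVp12 turned. The mean of the pair medians of all members was -0.022 without NT1p14 with TBVp13, 0.095 without NT1p12 with TBVp12 and 0.013 without NT1 1 with TBV2.

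The count of the pair difference moved most. For all genes and for mitoribosomal genes, in that order, it was 202 of 7745 (2.61%) and 2 of 44 (4.55%) without the dye term. In either dye orientation alone it was 0 and 0. It was 1315 of 7745 (17%) and 11 of 44 (25%) with trend and robust moderation, and 0 and 0 at an adjusted p under 0.01. With probes tested singly, 1956 of 15413 probes (12.7%) and 9 of 49 mitoribosomal probes (18.4%) passed. The count of genes was 18 of 8131 (0.221%) and 0 of 46 with arrays 4 and 5 of NT1p14 with TBVp13 left out. It was 2 of 7745 (0.0258%) and 0 of 44 with the signs of that pair turned. It was 1165 of 6282 genes (18.5%) and 9 of 39 mitoribosomal genes (23.1%) when all 9 arrays had to have a value. Leaving out single arrays gave 0 to 1334 genes (0% to 17.1%) and 0 to 8 mitoribosomal genes (0% to 18.2%). With the signs turned, Mrpl51 was at -0.047 and Mrps18a at 0.59. The causes were not tested. Leaving out arrays 4 and 5 together, turning NT1p14 with TBVp13 in the pair difference, and the subunits by structure were chosen after seeing the data. Each array pairs an NT1 source with a TBV source. No further pairing of arrays across source pairs was possible because the labels give the groups no shared replicate numbers. A single array left out of NT1 1 with TBV2 leaves no pair value, and those of NT1p12 with TBVp13 do not enter the tests.

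Limits are the number of independent pairs, the lost decimals, which hide small ratios, the unsettled direction of the ratio, and the absence of signal values from the table, so that weak probes cannot be told from strong ones.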
